A study of Homo sapiens with 6 samples.

Results

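CSF1, CSF2 and CSF3 are the genes of the colony-stimulating factors M-CSF, GM-CSF and G-CSF. They were taken by name, 3 genes of the 58302 in the deposited table, and all 3 had enough counts to be tested. Their mRNA was measured by RNA-seq in PC-3, an established human prostate cancer cell line from a bone metastasis. The first group, called BHLHE22 below, was PC-3 that had received a lentivirus overexpressing the basic helix-loop-helix (bHLH) transcription factor BHLHE22. The other, called vector, was PC-3 given an empty lentivirus, and each group had 3 libraries of total RNA. The labels do not state the promoter of the transgene, whether the cells were a clone or a pool, or whether replicates were cultured separately. The spread that the p-values below are set against is therefore that of the 3 libraries, and it may be technical.

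Colony-stimulating factors are secreted growth factors that instruct bone marrow progenitors and their myeloid progeny. M-CSF sustains monocytes, macrophages and the osteoclasts of bone, GM-CSF acts on granulocytes, macrophages and dendritic cells, and G-CSF drives the production and release of neutrophils. Tumour cells can make all of them, and GM-CSF and G-CSF are known to expand myeloid-derived suppressor cells, the cells that the series title names. CSF2 and CSF3 belong to the classical short-lived cytokine mRNAs, whose 3′ untranslated regions carry AU-rich repeats read by decay proteins. Their receptors sit mainly on myeloid cells and signal through Janus kinases and STAT proteins (GM-CSF, G-CSF) or are themselves kinases (M-CSF).

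The AU-rich stretches are shown because they set the mRNAs of the 3 factors apart in sequence. Each line gives the 30 bases with the most ATTTA pentamers in the 3′ untranslated region of the main transcript in GENCODE 29 on GRCh38, on the plus strand. Pentamers are in capitals. The stretches lie at chr5:132076072-132076101 for CSF2, chr17:40016975-40017004 for CSF3 and chr1:109930911-109930940 for CSF1.
CSF2: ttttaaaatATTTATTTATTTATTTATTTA
CSF3: tcccatgtATTTAtctctATTTAatATTTA
CSF1: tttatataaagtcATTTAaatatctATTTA

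The CSF2 stretch holds 5 overlapping pentamers, that of CSF3 holds 3 and that of CSF1 holds 2. Over the whole region, CSF2 has 8 pentamers in 318 bases, CSF3 has 7 in 854 and CSF1 has 4 in 2154. Per kb these are 25.2, 8.20 and 1.86. The density of CSF2 is above that of 99.9% and the density of CSF3 above that of 97.4% of 18427 such regions of at least 50 bases, 1 for each gene, and CSF1 lies above 56.2%. The 9-base repeat TTATTTATT occurs 3 times in CSF2 and in neither of the others, and 7.72% of the regions hold at least 1. Overlapping matches were counted, and only the transcript strand was searched. The counts of these libraries do not measure decay.

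**Figure D1:**
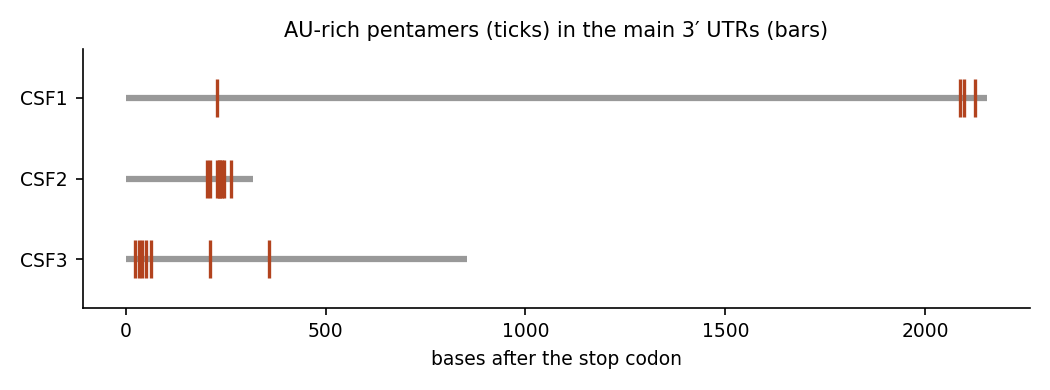
ATTTA pentamers (ticks) along the 3′ untranslated region (bar) of the main transcript of CSF1, CSF2 and CSF3, in bases after the stop codon. The 8 pentamers of CSF2 lie close together near the end of a short region, 5 of the 7 of CSF3 lie just after the stop codon, and 3 of the 4 of CSF1 lie at the far end of a long one.

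Of the 3 promoters, that of CSF2 is in the RefSeq table used here (build GRCh38.p14). Its 250 bases before and 50 after the start, chr5:132073539-132073838 on the plus strand, are printed because CSF2 rose and because bHLH factors bind E-boxes, written CANNTG. Capitals mark the E-box CATGTG, which begins 124 bases before the start, and the core AGATTCCAC of the CK-1 element, a cytokine promoter element, which begins 100 bases before it.
CSF2 promoter: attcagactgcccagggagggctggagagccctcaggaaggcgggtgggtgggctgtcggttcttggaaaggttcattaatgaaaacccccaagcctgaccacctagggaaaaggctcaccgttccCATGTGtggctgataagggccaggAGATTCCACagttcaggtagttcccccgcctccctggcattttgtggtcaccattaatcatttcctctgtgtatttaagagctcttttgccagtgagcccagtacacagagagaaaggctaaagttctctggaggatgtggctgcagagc

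The sites named here were searched on both strands with overlaps allowed. The CK-1 core occurs in 0.205% of the 35116 promoters of the table, and an E-box occurs in 68.7%. A GATA site (TGATAA) begins 114 bases before the start, between the other sites and overlapping neither, and 7.53% of promoters hold one. The letters of the AP-1 site TGANTCA, the C/EBP site TTNCNNAA and the TATA box TATAAA are not in this window, whereas 7.71%, 36.8% and 11.5% of promoters hold them. A 10-base pattern of the NF-kappaB site also had no exact match here, and 11.3% of promoters hold one. Sites that differ from a pattern were not counted. A match is a description of letters and does not show binding.

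The libraries held between 12186723 and 15949537 counts. BHLHE22 had 98, 92 and 133 counts in its own libraries and 1 count in each vector library. KRT8, KRT18, KRT19 and EPCAM, epithelial markers, were present in all libraries, and KLK3 and KLK2, known as absent from PC-3, had at most 2 counts in any. Values below are CPM, read counts scaled to a common library size after trimmed mean of M-values normalisation, and p-values are from edgeR's quasi-likelihood test with Benjamini-Hochberg adjustment over 15945 tested genes. Calls were made where the adjusted p was below 0.05. Because 49.4% of all tested genes were called, 25.1% higher and 24.3% lower, a call by itself sets no gene apart here. The groups did not overlap for 60.5% of tested genes. In bulk RNA, fewer cells expressing a gene and less RNA per cell cannot be told apart.

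CSF2 and CSF3 rose in BHLHE22 cells and CSF1 did not pass the test, so 2 of the 3 factors were called. CSF3 differed most. Its level was 16.1-fold higher in BHLHE22 cells, at 37.2 ± 11.1 CPM against 2.30 ± 0.77 CPM in vector cells (SD, n = 3 each). CSF2 was 2.89-fold higher, at 46.0 ± 3.5 CPM in BHLHE22 and 15.9 ± 5.1 CPM in vector cells. CSF1 was at 10.2 ± 0.8 CPM in BHLHE22 and 14.0 ± 3.0 CPM in vector cells.

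CSF3 (ENSG00000108342) spans 40015361 to 40017813 on chromosome 17, plus strand, with 5 exons in its main transcript. It had 329, 530 and 797 counts in BHLHE22 replicates 1 to 3, and 27, 25 and 45 counts in vector replicates 1 to 3. Scaled, these were 25.7, 38.0 and 47.8 CPM in BHLHE22 cells, against 2.04, 1.70 and 3.17 CPM in vector cells. The lowest BHLHE22 library lay far above the highest vector library. The vector values rest on few reads: 25 counts carry an exact 95% Poisson interval of 16.2 to 36.9, which covers counting error only. The log2 fold change was 4.01 (SE 0.32, 95% interval 3.26 to 4.76, adjusted p = 0.000196, edgeR quasi-likelihood). By size of the log2 fold change it ranked 24 of the 15945 genes, counted from the largest rise. Leaving out 1 library at a time gave 3.79 to 4.32.

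CSF2 (ENSG00000164400) spans 132073790 to 132076170 on chromosome 5, plus strand, with 4 exons. It had 608, 678 and 700 counts in BHLHE22 cells, against 204, 312 and 158 counts in vector cells. Scaled, these were 47.4, 48.6 and 42.0 CPM in BHLHE22 libraries, against 15.4, 21.2 and 11.1 CPM in vector libraries. The groups did not overlap, and the relative spread was wider among the vector libraries, where replicate 2 was high and replicate 3 low. Its coefficient of variation was 7.70% in BHLHE22 cells and 31.8% in vector cells. The log2 fold change was 1.53 (SE 0.22, 95% interval 1.02 to 2.04, adjusted p = 0.00127, edgeR quasi-likelihood), rank 478 from the largest rise. Leaving out 1 library at a time gave at least 1.33.

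CSF1 (ENSG00000184371) spans 109910242 to 109930992 on chromosome 1, plus strand, and its main transcript has 9 exons. Its counts were 142, 138 and 158 in BHLHE22 cells and 184, 252 and 157 in vector cells. Scaled, these were 11.1, 9.90 and 9.48 CPM in BHLHE22 libraries, against 13.9, 17.1 and 11.1 CPM in vector libraries. The groups overlapped narrowly: the highest BHLHE22 library, replicate 1, lay just above the lowest vector library, replicate 3 (11.08 against 11.06 CPM). The log2 fold change was -0.47 (SE 0.18, unadjusted 95% interval -0.88 to -0.06, adjusted p = 0.0581, edgeR quasi-likelihood), so CSF1 was not called. Without vector replicate 3 it was called at -0.61 (adjusted p = 0.0180). The other 5 such fits did not call it, with adjusted p of 0.0745 to 0.175. CSF1 transcripts encode secreted and membrane-bound forms of M-CSF, and the counts per gene do not separate them.

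**Figure D2:**
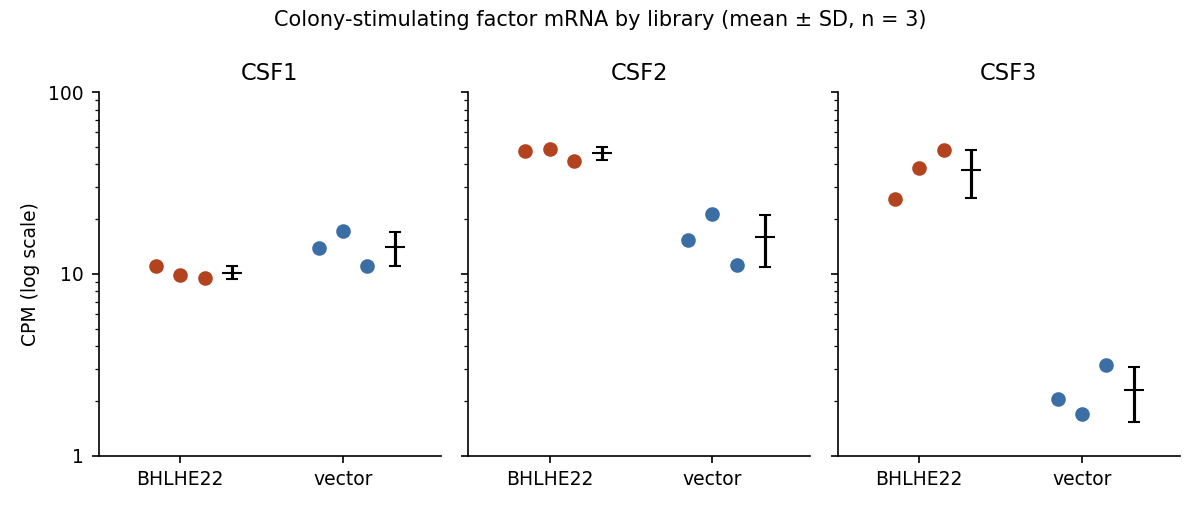
Level of each factor in CPM on a logarithmic axis, with 1 point for each library and the mean ± SD (n = 3) beside the points, BHLHE22 libraries left of vector libraries. CSF3 is at 25.7 to 47.8 CPM in BHLHE22 and 1.70 to 3.17 CPM in vector libraries, CSF2 at 42.0 to 48.6 and 11.1 to 21.2 CPM, and CSF1 at 9.48 to 11.1 and 11.1 to 17.1 CPM.

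Within the groups CSF3 did not follow CSF2. In BHLHE22 cells CSF3 was highest in replicate 3 and lowest in replicate 1, whereas CSF2 was lowest in replicate 3. In vector cells, replicate 2 had the most CSF2 and CSF1 and the least CSF3, and replicate 3 had the reverse. CSF3 rested there on 27, 25 and 45 counts in replicates 1 to 3. Their exact 95% Poisson intervals overlap (17.8 to 39.3, 16.2 to 36.9 and 32.8 to 60.2). Overlap of such intervals does not by itself settle whether counts differ, and the order of CSF3 among the vector libraries was not tested. The biological coefficient of variation fitted by edgeR was 24.8% for CSF3, 19.9% for CSF2 and 17.1% for CSF1, at or above that of 90.2%, 81.6% and 70.7% of tested genes.

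There were more reads of CSF3 per read of CSF2 in every BHLHE22 library than in any vector library. The count ratio of CSF3 to CSF2 was 0.541, 0.782 and 1.14 in BHLHE22 replicates 1 to 3, against 0.132, 0.0801 and 0.285 in vector replicates 1 to 3. The same ratio of CSF3 to CSF1 was 2.32, 3.84 and 5.04 in BHLHE22 libraries, against 0.147, 0.0992 and 0.287 in vector libraries. That of CSF2 to CSF1 was 4.28, 4.91 and 4.43 in BHLHE22 libraries, against 1.11, 1.24 and 1.01 in vector libraries. None of the 3 ratios overlapped between groups. Such a ratio is free of library scaling, and a gene's length cancels from its difference between groups. The log2 ratio was higher in BHLHE22 cells by 2.44 for CSF3 to CSF2, by 4.46 for CSF3 to CSF1 and by 2.03 for CSF2 to CSF1. Each had p = 0.1 in a 2-sided exact permutation test of 3 libraries against 3, the smallest p this design allows, and 0.1 after adjustment over the 3 ratios.

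Levels of different genes can be compared per length only. Scaled by the main transcript (787 bases for CSF2, 1509 for CSF3 and 4210 for CSF1), CSF2 was the most abundant factor in every library. In BHLHE22 cells CSF2 was at 58.5 ± 4.5, CSF3 at 24.6 ± 7.4 and CSF1 at 2.41 ± 0.20 CPM per kb, and neighbours in this order did not overlap. In vector cells CSF2 was at 20.2 ± 6.4, CSF1 at 3.33 ± 0.72 and CSF3 at 1.53 ± 0.51 CPM per kb, again without overlap (SD, n = 3 each). CSF3 and CSF1 thus stood in opposite order in the groups. The summed level of the 3 factors was 79.9, 89.4 and 87.3 CPM per kb in BHLHE22 libraries, against 24.3, 32.2 and 18.9 CPM per kb in vector libraries.

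The level in BHLHE22 cells minus that in vector cells was 38.3 CPM per kb for CSF2 and 23.1 CPM per kb for CSF3, so the larger fold change belonged to CSF3 and the larger gain in level to CSF2. The share of CSF3 in the summed level was 28.6 ± 7.5% in BHLHE22 cells and 6.74 ± 3.94% in vector cells. CSF2 held 68.6 ± 7.2% in BHLHE22 and 79.9 ± 4.5% in vector cells, and CSF1 held 2.83 ± 0.40% and 13.4 ± 0.7% (SD, n = 3 each). With all annotated exons merged as the length, CSF2 was at 58.5, CSF3 at 16.7 and CSF1 at 1.87 CPM per kb in BHLHE22 cells, and at 20.2, 1.04 and 2.59 CPM per kb in vector cells, the same order.

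**Figure D3:**
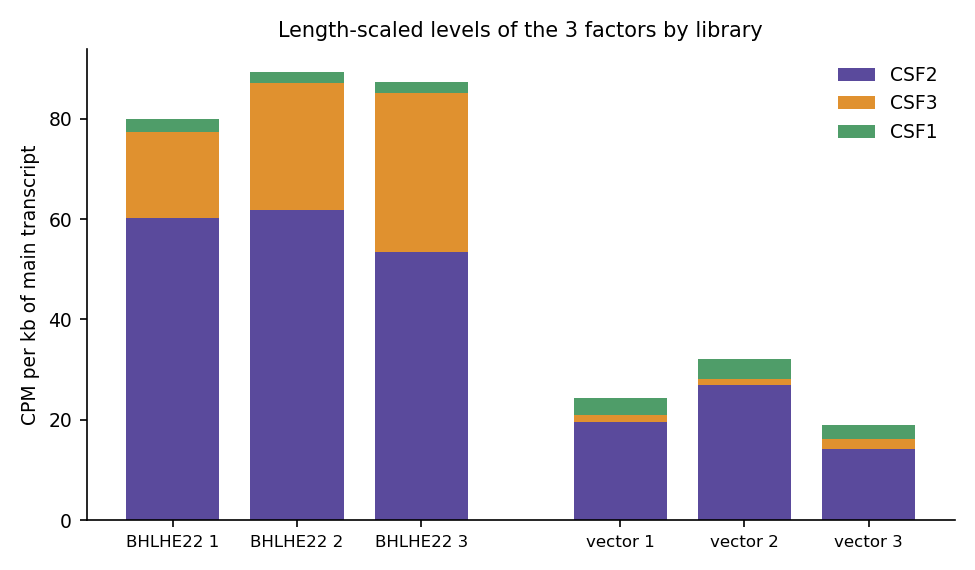
CPM per kb of the main transcript of CSF2, CSF3 and CSF1, stacked for each library, BHLHE22 libraries left of vector libraries. The stacks reach 79.9 to 89.4 in BHLHE22 and 18.9 to 32.2 in vector libraries, and the CSF3 part is large only in the BHLHE22 libraries.

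The deposited FPKM put CSF3 lower relative to CSF2 than this. Mean deposited FPKM were 61.4 ± 4.5 for CSF2, 6.51 ± 1.95 for CSF3 and 1.35 ± 0.11 for CSF1 in BHLHE22 cells. In vector cells they were 19.1 ± 5.6, 0.367 ± 0.132 and 1.68 ± 0.32. The gene length implied by count and FPKM was 787 bases for CSF2, 5997 for CSF3 and 7905 for CSF1. These equal the summed lengths of all distinct annotated exons of each gene, overlapping exons included, and for CSF3 that is longer than the whole locus. In BHLHE22 cells CSF2 exceeded CSF3 9.43-fold by deposited FPKM and 2.37-fold per kb of main transcript. Fold changes of 1 gene between groups are not touched by this length.

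Almost no reads of the receptors of the 3 factors were counted in these PC-3 libraries, which all held counts of the 3 ligands. The list held CSF1R, CSF2RA, CSF2RB, CSF3R, the related receptor chains IL3RA and IL5RA, and the ligands IL34, IL3 and IL5. None of the 9 genes was tested, and no library held more than 4 counts of any. CSF1R, the M-CSF receptor, had 0, 0 and 1 counts in BHLHE22 cells and 2, 0 and 3 counts in vector cells. CSF2RA, the GM-CSF receptor's own chain, had 0, 4 and 1 counts in BHLHE22 and 0, 1 and 0 counts in vector cells. CSF3R, the G-CSF receptor, had 0, 0 and 1 counts in BHLHE22 and 0, 1 and 0 counts in vector cells. CSF2RB, the shared beta chain, and IL3, the relative next to CSF2 on the chromosome, had 0 counts in all 6 libraries. A count of 0 allows 3 counts, or 0.188 to 0.246 CPM by library.

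Among genes of cytokines, receptors and their signalling proteins upstream of colony-stimulating factors, 13 were tested: 5 rose, 1 fell and 7 were not called. They included IL1RN, which encodes an antagonist, and MYD88, IRAK1 and TRAF6, which act inside the cell. Their median log2 fold change was 0.38, against 0.00 for all tested genes. The counts of this and the later lists stand beside 25.1% called higher and 24.3% called lower among all tested genes. TLR3, a sensor of double-stranded RNA, had 21, 44 and 74 counts in BHLHE22 libraries and 4, 4 and 8 counts in vector libraries (log2 fold change 3.01). IL1RAP, the signalling chain of the IL-1 receptor, was at 18.9 ± 1.7 CPM in BHLHE22 and 5.25 ± 0.76 CPM in vector cells (1.85). IL1B itself was at 683 ± 88 CPM in BHLHE22 and 442 ± 23 CPM in vector cells (0.63). IL1R1 rose by 1.20 and IL17RA, the receptor of IL-17, by 0.47, while IL17RC, its partner chain, fell by 0.60. TNF had 0 counts in all libraries. MYD88, the adaptor of IL-1 and Toll-like receptors, had 225, 223 and 1099 counts in BHLHE22 and 188, 202 and 194 counts in vector libraries and was not called. The call of IL1R1 was lost without BHLHE22 replicate 1 or 3 or vector replicate 1 or 2 (adjusted p 0.0910 to 0.139, edgeR) and with limma-voom (0.0524), and that of IL17RA without vector replicate 1 (0.0586), where 3 genes rose. Without vector replicate 3, 3 genes fell.

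Transcription factors known to act on promoters of these genes moved in both directions. The 24 tested comprised 3 that rose, 8 that fell and 13 that were not called, and their median was -0.15. ETS2 rose by 0.78, JUN by 0.72 and FOSL2 by 0.49. FOSB was at 1.48 ± 0.54 CPM in BHLHE22 and 5.20 ± 1.75 CPM in vector cells and fell. CEBPD, JUND, CEBPG, RUNX1, FOSL1, SP1 and NFKB1 fell by 1.51, 0.73, 0.66, 0.52, 0.48, 0.37 and 0.35 on the log2 scale. The NF-kappaB subunit RELA was at 76.8 ± 5.8 CPM in BHLHE22 and 89.8 ± 6.7 CPM in vector cells, and RELA, RELB, REL and NFKB2 were not called. CEBPB was at 49.7 ± 2.5 CPM in BHLHE22 and 56.5 ± 6.7 CPM in vector cells and was not called. Calls were lost for NFKB1 without BHLHE22 replicate 1 or 2 or vector replicate 1 or 2 (adjusted p 0.0918 to 0.111, edgeR), for CEBPD without any 1 BHLHE22 replicate (0.0535 to 0.0644), and for SP1 without BHLHE22 replicate 2 or vector replicate 1 (0.0554 and 0.0523). Without BHLHE22 replicate 2, 5 genes fell. With unscaled library sizes NFKB1 and SP1 were not called, and without the low-count filter CEBPD was not (0.0666).

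Genes of AU-rich mRNA decay and stability were mixed as well. Among 16 tested, 2 rose and 6 fell, 8 were not called, and the median was -0.06. ZFP36, the decay protein tristetraprolin that targets CSF2 mRNA, was at 12.9 ± 2.1 CPM in BHLHE22 and 12.5 ± 2.6 CPM in vector cells (log2 fold change 0.04, SE 0.20, not called). Its relative ZFP36L2 was at 77.1 ± 8.6 CPM in BHLHE22 and 135 ± 9 CPM in vector cells and fell by 0.81. CNOT1, the scaffold of the deadenylase complex, fell by 0.48. RC3H1 and RC3H2, which encode roquin proteins, fell by 0.46 and 0.41. TIAL1, an AU-binding protein, fell by 0.61, and ZC3H12A, the RNase regnase-1, by 0.44. NCL, the gene of nucleolin, rose by 0.83, and HNRNPD, the gene of the AU-binding protein AUF1, rose by 0.47. The call of ZC3H12A was lost without any 1 BHLHE22 replicate or without vector replicate 1 or 2 (adjusted p 0.0604 to 0.0874, edgeR) and with unscaled library sizes.

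Among 6 tested genes of M-CSF shedding and of proteoglycan synthesis, 3 fell and 1 rose, 2 were not called, and the median was -0.30. RHBDF1, a partner that brings the sheddase ADAM17 to the cell surface, was at 24.4 ± 2.8 CPM in BHLHE22 and 55.4 ± 13.8 CPM in vector cells (log2 fold change -1.18). Its relative RHBDF2 fell by 0.50 and ADAM17 by 0.35. XYLT2, which starts the glycosaminoglycan chains of proteoglycans, rose by 0.53. The call of ADAM17 was lost without BHLHE22 replicate 2 or 3 or vector replicate 1 or 2 (adjusted p 0.0555 to 0.0585, edgeR) and with unscaled library sizes. The call of XYLT2 was lost without BHLHE22 replicate 1 or 3 or vector replicate 2 or 3 (0.0580 to 0.0723), which leaves 0 rises.

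Downstream of the receptors, 16 signalling genes were tested, and 5 rose, 2 fell and 9 were not called (median 0.10). The feedback inhibitor SOCS1 had 24, 24 and 26 counts in BHLHE22 and 6, 3 and 5 counts in vector libraries (log2 fold change 2.33). LYN, a SRC-family kinase, rose by 1.07, CISH by 0.93 and SOCS3 by 0.42, while the adaptors GAB2 and GAB1 fell by 0.90 and 0.77. STAT3 had 0, 0 and 1 counts in BHLHE22 libraries and 5, 4 and 3 counts in vector libraries, STAT5A had 0 in all, and STAT5B had 2 in one vector library. Thus STAT3, STAT5A and STAT5B, known for G-CSF and GM-CSF signals, were near 0 in both groups. Calls were lost for CISH without BHLHE22 replicate 2 or 3 or vector replicate 2 (adjusted p 0.0583 to 0.0722, edgeR) and for SOCS3 without BHLHE22 replicate 1 or 2 or vector replicate 2 or 3 (0.0562 to 0.0728). Without BHLHE22 replicate 2 or vector replicate 2, 3 genes rose, and without vector replicate 3, 4 fell.

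**Figure D4:**
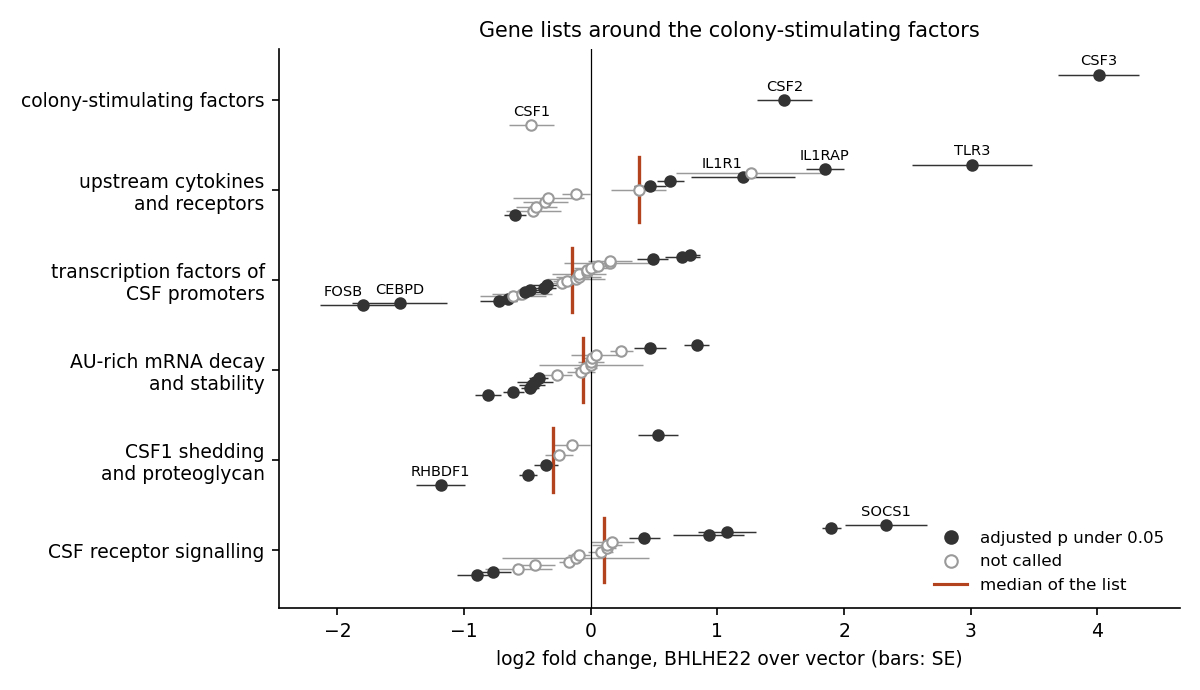
Log2 fold change, BHLHE22 over vector, with its SE, for the 3 factors and the tested genes of 5 lists. Filled points passed an adjusted p of 0.05 (edgeR) and vertical lines are list medians. CSF3 at 4.01 lies beyond every gene of the lists, of which TLR3 at 3.01 is the nearest, and the list medians lie between -0.30 and 0.38.

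Markers of other cell types were mostly near 0 or lower in BHLHE22 cells. LUM, a matrix gene, was the only tested marker of other cell types that rose (log2 fold change 2.16). The 15 myeloid and blood cell markers summed to 24 to 38 counts in BHLHE22 libraries and 46 to 60 counts in vector libraries, and 1 was tested. That marker, CD14, fell, with 5, 6 and 10 counts in BHLHE22 and 27, 46 and 31 counts in vector cells. The gap between the summed counts lay in CD14, so the other markers were not lower as a set. CD33, not tested, went the other way, with 7, 10 and 4 counts in BHLHE22 and 2, 2 and 3 counts in vector libraries. PTPRC, which all leukocytes express, had 2, 0 and 1 counts in BHLHE22 and 0 in vector libraries, and TYROBP, CD3E and HBB had 0 in all. Of 10 fibroblast and endothelial markers, 5 were tested: LUM rose, COL3A1, PECAM1 and COL1A1 fell, and 1 was not called. Their summed counts were 1138 to 1339 in BHLHE22 and 1825 to 2184 in vector libraries, most of them from COL1A1 and PECAM1, while CDH5 and VWF had at most 2 counts. Among epithelial markers EPCAM rose by 1.17, KRT8 and KRT18, whose annotated loci overlap, fell by 0.32 and 0.38, and KRT19 was not called. The part of these markers in the results above was not tested.

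No tested neighbour of CSF3 had a rise as large as its own. Within 500 kb of CSF3, 28 genes were tested, comprising 8 that rose, 6 that fell and 14 that were not called, with log2 fold changes of -2.43 to 1.24. For this and the other 500 kb windows, the shares over all tested genes were 25.1% called higher and 24.3% called lower. The adjacent genes, the proteasome subunit gene PSMD3 and the Mediator subunit gene MED24, had log2 fold changes of 0.06 and -0.21 and were not called. CDC6, a replication licensing gene, rose by 1.24 and IGFBP4 by 0.61, and PPP1R1B and GRB7 fell by 2.43 and 1.78. Without BHLHE22 replicate 2, 3 genes fell.

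Within 500 kb of CSF2, 11 genes were tested, comprising 5 that rose, 2 that fell and 4 that were not called (median 0.31). The 3 tested genes nearest to CSF2, on its distal side, were P4HA2, PDLIM4 and SLC22A4, and all rose, by 0.55, 1.20 and 1.21. Their annotated loci overlap, so reads could be shared between them. P4HA2, a collagen hydroxylase gene, was at 98.1 ± 7.4 CPM in BHLHE22 and 66.8 ± 5.3 CPM in vector cells, and PDLIM4 was at 59.4 ± 9.2 CPM in BHLHE22 and 25.8 ± 1.5 CPM in vector cells. FNIP1, on the other side, fell by 1.09. IRF1 rose by 0.36, and its call was lost without BHLHE22 replicate 1, 2 or 3 or vector replicate 1 or 3 (adjusted p 0.0506 to 0.0706, edgeR). C5orf56 rose by 1.05. Its locus overlaps that of IRF1, and whether counting used strand is not given. The other fall was AC116366.1, which was called without BHLHE22 replicate 2 and lost without any 1 of the other 5 libraries (0.0637 to 0.113), leaving 1 fall.

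Around CSF1, 18 genes were tested, comprising 2 that rose, 5 that fell and 11 that were not called (median 0.02). The nearest tested gene, AHCYL1, was at 139 ± 21 CPM in BHLHE22 and 237 ± 18 CPM in vector cells and fell by 0.78, and AMPD2 fell by 1.34. Both rises, AMIGO1 and PSMA5, were lost without BHLHE22 replicate 2 or 3 or vector replicate 1 or 2 (adjusted p 0.0736 to 0.133, edgeR) and with DESeq2 (0.114 for AMIGO1 and 0.0540 for PSMA5), and AMIGO1 also without the low-count filter (0.0527). Falls numbered 2 without vector replicate 1, and 3 without BHLHE22 replicate 2 or 3 or vector replicate 2 or 3.

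**Figure D5:**
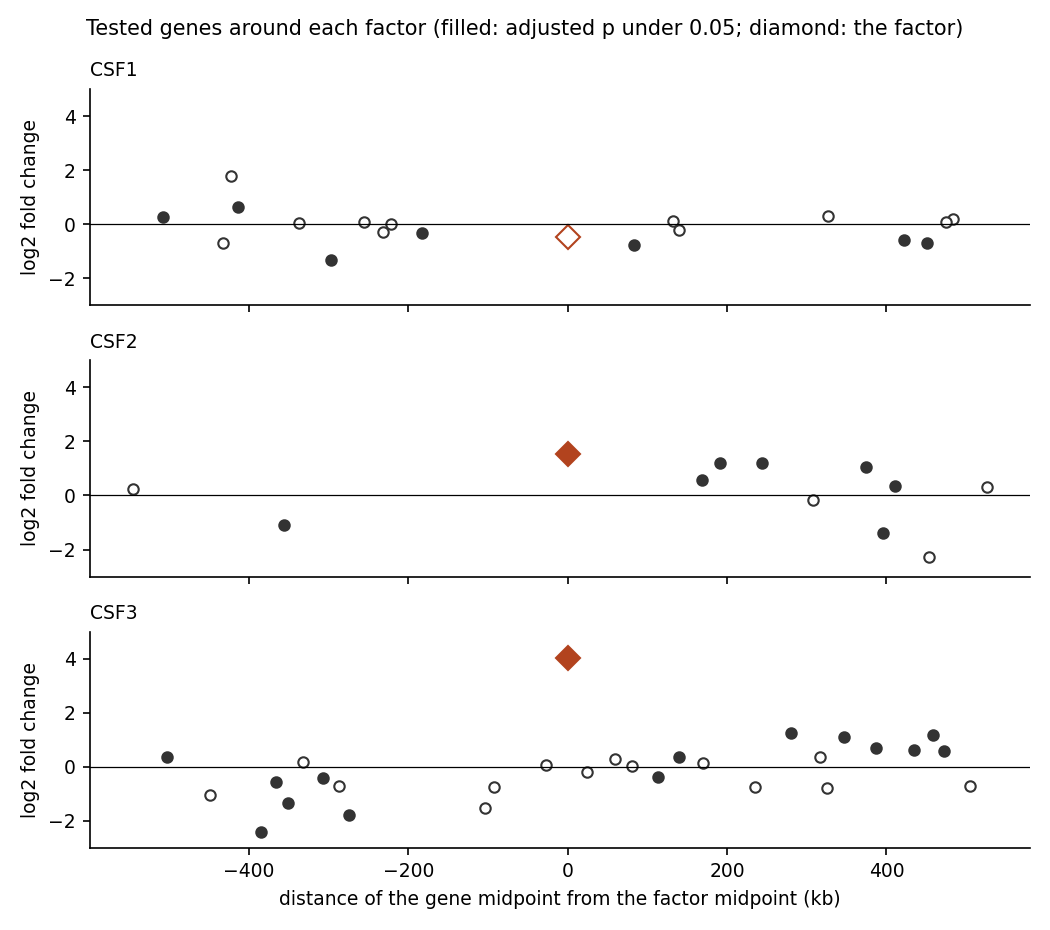
Log2 fold change, BHLHE22 over vector, of the tested genes within 500 kb of each factor (circles) against the distance between gene midpoints in kb, with the factor as a diamond. Filled symbols passed an adjusted p of 0.05. The factor CSF3 at 4.01 stands above all its neighbours (at most 1.24), CSF2 at 1.53 lies above neighbours of up to 1.21, and CSF1 at -0.47 lies within the range of its neighbours.

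Many genes followed patterns like those of the factors over the 6 libraries. Likeness was measured as Pearson's r of log2 CPM among 11950 protein-coding genes with a mean of at least 1 CPM, and is a description of libraries that share group and scaling. For CSF3, 2571 genes reached an r of 0.9, for CSF2 874 and for CSF1 537. The closest to CSF3 were MRPL18, a mitochondrial ribosomal protein gene (r = 0.9996), GINS2, a DNA replication gene (0.999), and TBCE, a tubulin chaperone gene (0.999). GINS2 was at 21.2 ± 2.95 CPM in BHLHE22 and 4.13 ± 0.76 CPM in vector cells. For CSF2 they included ITPKB (0.996) and NECTIN2 (0.995). For CSF1 they were EGLN3, an oxygen sensor gene (0.999), IER3 (0.996) and TSC22D4 (0.996). EGLN3 was at 2.81, 2.44 and 2.34 CPM in BHLHE22 libraries, against 3.86, 5.17 and 2.89 CPM in vector libraries. The measure ignores size: MRPL18 rose 1.56-fold where CSF3 rose 16.1-fold.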

How the data were processed

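RNA-seq of 3 BHLHE22 and 3 vector libraries of PC-3 cells was analysed from 1 deposited table. It holds whole-number read counts per gene and FPKM, both made by the authors. Per the submitters' processing notes the tools included edgeR, StringTie 1.3.4b, HISAT2 2.1.0 and CASAVA 1.8, and the builds were GRCh38 and hg38. The sources used here do not give the counter, its strand setting or the role of each tool. Columns headed control were taken as the vector libraries. For 91.7% of 26763 genes, the length behind the deposited FPKM equalled, within 0.5 bases, the summed distinct exons of GENCODE 29.

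Counts were tested with edgeR 4.0.16 in R 4.3.3 (filterByExpr, trimmed mean of M-values, robust quasi-likelihood, group as the only term, 2-sided). The filter kept 15945 genes, which held 99.8% of the counts. The SE is the log2 fold change divided by the square root of F. Likeness used log2 CPM with a prior count of 2. Alternatives were a replicate block, other scalings, DESeq2 1.42.0, limma-voom (limma 3.58.1), other filters and leaving out each library. The procedure was tested on simulated data. Libraries of a group differed beyond sampling noise (chi-square per degree of freedom at least 11.8).

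The members and lists were chosen with earlier results of these data known. Named are the factors, list members, neighbours within 500 kb and the 3 most similar genes for each factor. Sites and AU-rich repeats were counted in RefSeq promoters and GENCODE 29 transcripts. Some genes named by this rule are not reported here.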

Additional observations from a re-analysis of the deposited data

How the results depend on the processing

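The rises of CSF2 and CSF3 were called under all 13 alternatives run, with log2 fold changes of at least 1.33 and 3.79. CSF1 was lower and not called in all but one, from -0.61 (adjusted p = 0.0180, without vector replicate 3) to -0.30 (without vector replicate 2). The ratios between factors kept their direction without any 1 library and with a pseudocount of 0.1 FPKM. Unscaled library sizes shifted the median gene by 0.15 (log2), and 64.0% of calls were then higher, against 50.7%. Of 36 called genes of the lists, 26 kept the call in every alternative, and none reversed. List calls numbered 16 higher and 20 lower, or 12 to 14 and 15 to 25 without 1 library. Genes lower within 500 kb of CSF2 numbered 1 in place of 2 with the replicate block, unscaled sizes, DESeq2 or a filter of 1 CPM in 3 libraries, and 1 to 2 without 1 library. With unscaled sizes 3 genes were lower around CSF1 and 3 around CSF3; without 1 library the ranges were 2 to 4 and 3 to 9. Genes higher around CSF1 numbered 1 with DESeq2 or without the low-count filter, and 0 to 3 without 1 library. The cause of these changes was not tested. The replicate numbers did not pair the libraries: deviations from the group mean correlated at 0.00538, -0.0267 and 0.0105 for equal numbers, and 2 of 6 libraries correlated best with their own number. With the replicate block 7292 genes were called in place of 7876, and the log2 fold changes were 4.01 for CSF3, 1.57 for CSF2 and -0.45 for CSF1 (not called). The block also ended the calls of NFKB1 (adjusted p = 0.0613), IRF1 (0.0586), GSTM3 (0.0590) and AC116366.1 (0.0530). Depth limits the receptors, with at most 4 counts, and CSF3 in vector cells, with 25 to 45.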
